A study of Mus musculus with 32 samples.

Results

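This account sets E12.5 PL against 8w BM, the adult marrow group, in chromatin accessibility of mouse haematopoietic stem and progenitor cells. The members are the 3 libraries titled E12.5 PL and the 3 titled 8w BM, 6 of the 32 libraries of the series, taken from the count table of the developmental libraries and read over autosomal regions alone. The 3 E12.5 FL libraries stand beside them, so that what E12.5 PL and 8w BM have in common can be told from what both differ in from fetal liver. All 9 libraries came from C57BL/6 mice and carry the cell type label LSK, a fraction without lineage markers that carries Sca-1 and Kit, in which blood stem cells and early progenitors are found. E12.5 PL and E12.5 FL are labelled with the stage E12.5 and the first 2 libraries of 8w BM 8 weeks; a culture step named in the labels belongs, by title, to other libraries of the series. Whether each library is from its own animal is not in the labels. The p-values of regions and genes reflect only the spread among the 26 developmental libraries, which were fitted together. Those of permutation tests reflect only the libraries compared. The labels do not spell out PL, and it is used here as written. The third 8w BM library bears the stage label E12.5 beside its 8w BM title, so counts of regions, genes and list members, named calls and promoter shares were also computed without it.

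Blood stem and progenitor cells arise in the embryo from haemogenic endothelium, expand in the fetal liver and settle in the bone marrow around birth, where most become quiescent in the adult. Their chromatin is held open at promoters and at distal enhancers by factors such as RUNX1, PU.1, GATA2 and the ETS family, and factors of the AP-1 family (FOS and JUN dimers) open further enhancers after signalling. ATAC-seq, in which the Tn5 transposase cuts open DNA and tags it for sequencing, reads these sites as counts per region. In such bulk libraries fewer cells with an open site and less opening per cell cannot be told apart.

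The promoters below carry short sequence patterns that differed in frequency between the sets of regions described later. For each set they are the 2 promoters of smallest p, among regions above the median level, whose pattern lies both upstream of the RefSeq start and inside the region, and they were chosen after the values were seen. Each sequence is the 250 bases before the start, from RefSeq (assembly GRCm38.p6, the assembly of build mm10), read 5′ to 3′ on the gene's strand. Rcan1 (chr16:92400079-92400328, minus strand) and Mrtfb (chr16:13358171-13358420, plus strand) lay in regions higher in E12.5 PL than in 8w BM, and capitals mark TGACTCA, the AP-1 pattern, on either strand.
Rcan1: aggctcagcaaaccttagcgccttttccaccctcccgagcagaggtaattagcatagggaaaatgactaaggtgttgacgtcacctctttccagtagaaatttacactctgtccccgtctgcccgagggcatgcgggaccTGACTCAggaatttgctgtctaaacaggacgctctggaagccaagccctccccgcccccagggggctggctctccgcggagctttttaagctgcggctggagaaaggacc
Mrtfb: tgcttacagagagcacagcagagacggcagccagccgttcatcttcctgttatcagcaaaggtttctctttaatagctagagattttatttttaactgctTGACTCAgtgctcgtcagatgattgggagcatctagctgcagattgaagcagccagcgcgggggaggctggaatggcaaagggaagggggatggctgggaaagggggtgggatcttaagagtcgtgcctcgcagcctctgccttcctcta
Runx3 (chr4:135120395-135120644, plus strand) and Arhgap30 (chr1:171388710-171388959, plus strand) lay in regions lower in E12.5 PL than in 8w BM, and capitals mark TGTGGT, the RUNX pattern, on either strand.
Runx3: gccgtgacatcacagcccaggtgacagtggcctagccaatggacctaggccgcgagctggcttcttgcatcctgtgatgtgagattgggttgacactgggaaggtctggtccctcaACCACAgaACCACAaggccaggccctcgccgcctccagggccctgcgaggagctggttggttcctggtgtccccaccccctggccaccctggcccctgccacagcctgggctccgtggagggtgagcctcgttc
Arhgap30: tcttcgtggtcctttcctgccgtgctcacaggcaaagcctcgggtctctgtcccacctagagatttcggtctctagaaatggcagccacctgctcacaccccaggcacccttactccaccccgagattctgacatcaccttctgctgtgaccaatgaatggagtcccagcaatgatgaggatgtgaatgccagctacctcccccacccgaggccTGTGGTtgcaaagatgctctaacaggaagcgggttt
Zyx (chr6:42349578-42349827, plus strand) and Upp1 (chr11:9117758-9118007, plus strand) lay in regions higher in both E12.5 PL and 8w BM than in E12.5 FL, and capitals again mark TGACTCA on either strand.
Zyx: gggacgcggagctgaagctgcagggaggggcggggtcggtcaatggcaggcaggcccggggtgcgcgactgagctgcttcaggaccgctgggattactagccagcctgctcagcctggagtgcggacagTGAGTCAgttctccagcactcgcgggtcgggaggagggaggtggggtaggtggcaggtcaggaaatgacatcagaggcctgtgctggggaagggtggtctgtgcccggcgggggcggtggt
Upp1: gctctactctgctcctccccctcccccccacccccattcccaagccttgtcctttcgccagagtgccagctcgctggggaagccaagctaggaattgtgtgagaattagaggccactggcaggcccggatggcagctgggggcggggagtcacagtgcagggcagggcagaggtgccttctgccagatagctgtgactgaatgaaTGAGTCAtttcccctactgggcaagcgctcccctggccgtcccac

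The table held 99037 regions, of which 96960 were autosomal and 96929 of the autosomal ones passed the filter on low counts. Total counts ran from 4498323 to 5066732 per library in E12.5 PL, 4505341 to 6521956 in 8w BM and 3681041 to 3968734 in E12.5 FL. Across regions, log2 levels correlated at r = 0.84 to 0.90 among E12.5 PL libraries, and at 0.43 to 0.55 between E12.5 PL and 8w BM, as a description over regions that share libraries. The 8w BM and E12.5 FL libraries correlated at 0.82 to 0.83, so that E12.5 PL stood apart from both. The third 8w BM library correlated at 0.48 to 0.55 with E12.5 PL, at 0.91 to 0.92 with the other 8w BM libraries and at 0.82 to 0.83 with E12.5 FL. Levels below are CPM, counts scaled to the same library total, with normalisation by the trimmed mean of M values (TMM), fold changes are log2 values with their standard error, and adjusted p is from the quasi-likelihood test of edgeR with Benjamini-Hochberg adjustment over the whole table. The standard error was derived from that test, as the absolute fold change divided by the square root of the F statistic.

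Open chromatin differed widely between the groups. Of the 96929 autosomal regions tested, 53060 (54.7%) passed an adjusted p of 0.05 between E12.5 PL and 8w BM: 27938 (28.8%) were higher in E12.5 PL and 25122 (25.9%) were lower. Without the third 8w BM library the numbers were 26274 higher and 23213 lower. The gains of E12.5 PL were steeper: 8503 regions were higher and 811 lower by a log2 fold change of at least 3. The median fold change was 2.31 over the higher regions and -1.57 over the lower ones, values that the call itself selects. The split depended on scaling, since the size factors of DESeq2 within edgeR gave 34744 higher and 18556 lower, and moved the median of all regions to 0.24, against -0.06 with TMM.

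Most regions higher in E12.5 PL had the smallest width in the table, and they were often near genes. Of them 60.6% had that width, 501 bp, against 5.70% of the lower regions and 31.3% of all tested. Width may also depend on how peaks of the developmental libraries were merged, which is not given, and this was not tested. Positions are relative to named protein-coding genes of RefSeq and the members of the gene lists. Within 1 kb of an end of a gene span, 34.2% of 17388 regions were higher and 13.7% lower, while in gene bodies the shares were 28.6% and 28.7% of 42124. Regions at gene ends took 48.8%, 46.4% and 45.5% of the autosomal counts in E12.5 PL, against 42.4%, 44.2% and 42.5% in 8w BM. The groups did not overlap (two-sided exact permutation test, p = 0.10, the smallest that 3 against 3 libraries can give). The peak lists of single libraries held 24968, 37324 and 27721 peaks in E12.5 PL, against 40314, 50806 and 30443 in 8w BM, and the groups overlapped (two-sided exact permutation test on log10 numbers, p = 0.20). Peaks of at least 2 E12.5 PL lists lay over 44.7% of the higher regions, and peaks of at least 2 8w BM lists over 18.9% of them. Over the lower regions the shares were 8.00% for E12.5 PL and 66.2% for 8w BM, and over all regions tested 24.2% and 36.2%. The peak names in the files show that the fetal lists and the marrow lists were called in separate folders, which cannot be told apart from the groups.

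Among the 12 regions of smallest p that were higher in E12.5 PL, an imprinted gene led. The body of Peg3, a paternally expressed zinc-finger gene, at chr7:6727243-6728975 had 113, 111 and 121 CPM in the E12.5 PL libraries, against 6.75, 6.71 and 9.05 CPM in 8w BM, a log2 fold change of 3.94 ± 0.21 (adjusted p = 5.57e-22). Every E12.5 PL library lay far above every 8w BM library, and E12.5 FL, with 85.8, 136 and 107 CPM, was near E12.5 PL. Across the other marrow groups the mean was 79.6 CPM in perinatal BM, 40.8 CPM in 1w BM and 8.73 CPM in 3w BM.

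A region 2202 bp from Igf2bp3, which encodes a fetal RNA-binding protein downstream of LIN28B, at chr6:49217671-49218357 had 71.9, 70.9 and 60.4 CPM in E12.5 PL, against 11.9, 9.17 and 8.61 CPM in 8w BM (2.77 ± 0.20, adjusted p = 2.63e-17). E12.5 FL, at 55.9, 47.5 and 56.2 CPM, stood just below E12.5 PL (adjusted p = 0.0923). The single-exon imprinted gene Mcts2, at chr2:152686247-152687289, had 39.7, 34.4 and 28.9 CPM in E12.5 PL, against 1.64, 0.982 and 1.99 CPM in 8w BM (4.496 ± 0.35, adjusted p = 3.81e-16). E12.5 FL lay between the groups, at 15.4, 9.60 and 12.3 CPM.

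In the body of Sptbn1, a beta-spectrin of the membrane skeleton, the region chr11:30160993-30161493 had 56.8, 50.6 and 55.8 CPM in E12.5 PL, against 1.02, 1.31 and 2.21 CPM in 8w BM and 2.72, 0.937 and 1.96 CPM in E12.5 FL. At an end of Cald1, the actin-binding caldesmon of contractile cells, chr6:34598215-34598715 had 35.4, 43.0 and 32.2 CPM in E12.5 PL, against 1.02, 0.327 and 0.442 CPM in 8w BM and 2.26, 2.58 and 3.43 CPM in E12.5 FL. In the body of Limk1, a kinase that acts on cofilin, chr5:134680233-134680733 had 21.2, 50.4 and 41.2 CPM in E12.5 PL, against 0.409, 0.655 and 1.33 CPM in 8w BM and 4.08, 2.81 and 1.96 CPM in E12.5 FL. The log2 fold changes over 8w BM were 5.17 ± 0.38 for Sptbn1, 5.92 ± 0.44 for Cald1 and 5.55 ± 0.44 for Limk1. That the libraries of E12.5 PL and 8w BM do not overlap was asked of every region named here and is no finding; over all regions tested, 30.5% were higher and 29.3% lower in E12.5 PL without overlap.

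The actin-bundling gene Fscn1 (chr5:142961779-142962392) had 49.1 ± 11.5 CPM in E12.5 PL and 3.70 ± 0.697 CPM in 8w BM (mean ± SD, n = 3 each). The splicing factor gene Rbfox2 (chr15:77306318-77307380) had 86.6 ± 4.31 CPM in E12.5 PL and 14.6 ± 1.98 CPM in 8w BM. Rcan1, an inhibitor of calcineurin whose promoter is printed above, had 46.4, 47.7 and 48.8 CPM in E12.5 PL, against 6.95, 5.89 and 6.63 CPM in 8w BM and 6.34, 6.56 and 5.40 CPM in E12.5 FL at chr16:92399848-92400560. The remaining regions of this group lay at Fignl2 (chr15:101078585-101079371), 41568 bp from Tsc22d2 (chr3:58372319-58373134) and in Sfi1 (chr11:3192887-3193693), with log2 fold changes of 3.62 ± 0.29, 3.68 ± 0.30 and 2.57 ± 0.18. Sfi1 spans repeated sequence, and counts there are uncertain: its region had 659, 1162 and 562 CPM in E12.5 PL, against 137, 107 and 156 CPM in 8w BM.

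**Figure D1:**
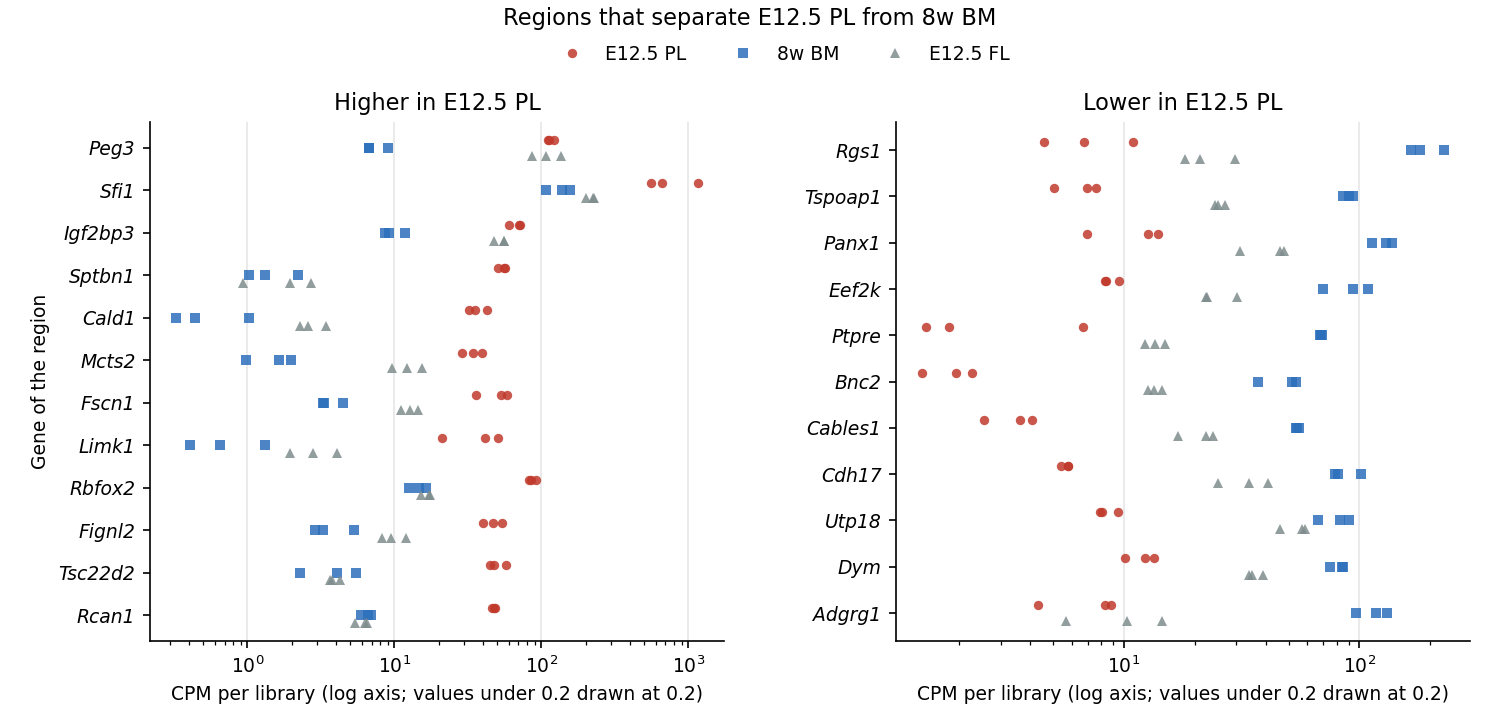
CPM per library (log axis) of the 12 regions of smallest p that were higher in E12.5 PL than in 8w BM (left) and of 11 of smallest p that were lower (right), with 1 point for each of the 3 libraries of E12.5 PL (red), 8w BM (blue) and E12.5 FL (grey). E12.5 FL lies with E12.5 PL at Peg3 and Igf2bp3, with 8w BM at Sptbn1, Rbfox2, Tsc22d2 and Rcan1, and, in the mean, between the groups in all 11 lower regions.

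The 11 regions described that were lower in E12.5 PL were likewise chosen by smallest p. At an end of Rgs1, a regulator of G-protein and chemokine signalling in leukocytes, chr1:144243262-144244691 had 4.57, 6.75 and 10.9 CPM in E12.5 PL, against 228, 180.0 and 166 CPM in 8w BM, a log2 fold change of -4.68 ± 0.27 (adjusted p = 1.86e-20). E12.5 FL, at 21.1, 29.7 and 18.2 CPM, lay between the groups. In the body of Adgrg1, the adhesion receptor GPR56 of stem cells, chr8:95012360-95013113 had 4.33, 8.78 and 8.33 CPM in E12.5 PL, against 118, 130.3 and 96.955 CPM in 8w BM (-4.00 ± 0.25, adjusted p = 3.56e-19). There E12.5 FL, at 14.5, 10.3 and 5.64 CPM, overlapped E12.5 PL (adjusted p = 0.139), and the mean was 27.4 CPM in 1w BM and 92.9 CPM in 3w BM.

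Ptpre, a receptor-type phosphatase of haematopoietic cells, had 1.44, 1.80 and 6.71 CPM in E12.5 PL at chr7:135659412-135660030, against 68.3, 69.4 and 68.5 CPM in 8w BM and 12.2, 15.0 and 13.5 CPM in E12.5 FL. Panx1, a channel that releases ATP, had 6.98, 12.6 and 13.9 CPM in E12.5 PL at chr9:15017989-15019062, against 129, 137 and 113 CPM in 8w BM. Eef2k, the kinase that slows translation elongation, had 8.42, 8.33 and 9.49 CPM in E12.5 PL at chr7:120851381-120852151, against 93.7, 109 and 70.2 CPM in 8w BM. In all 3 regions every E12.5 PL library was below every library of 8w BM and of E12.5 FL. The other 6 regions lay in or near Tspoap1 (chr11:87759474-87760036), Bnc2 (chr4:84685581-84686160), Cables1 (chr18:11935715-11936321), Cdh17 (chr4:11793950-11794825), Utp18 (chr11:93821518-93822048) and Dym (chr18:75278502-75279640). Their log2 fold changes ran from -4.67 ± 0.29 at Bnc2 to -2.77 ± 0.18 at Dym, and in each of them E12.5 FL lay between E12.5 PL and 8w BM in the mean.

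Summed over all regions nearest to a gene, 15973 autosomal genes were tested. Between E12.5 PL and 8w BM 8429 genes (52.8%) passed: 4163 (26.1%) were higher in E12.5 PL and 4266 (26.7%) lower, so a list of genes is read against these shares and against a median log2 fold change of -0.0014 over all genes. Without the third 8w BM library 7818 genes passed, 3811 higher and 4007 lower. Over all genes tested, 29.1% were higher and 30.7% lower in E12.5 PL without overlap of libraries, so groups that do not overlap at a gene are common. The 28 lists of genes hold 551 members, of which 518 were tested, 1 was X-linked and left out, and 32 had no tested region. The members given in full were fixed by rank of p within each list, apart from 15 genes named in every case; Itga5, Itga6, Itgb1, Vcam1, Gcm1, Hand1, Igf2, H19, Mest, Meg3, Dlk1, Hoxa9, Hoxa10, Tet2, Tet3 and Dnmt3l were chosen after their values were seen. The counts of all lists are in the plot of calls by list. Without the third 8w BM library the higher and lower counts moved by at most 1 gene in 24 lists; in the other 4 they became 5 higher and 13 lower for stem and progenitor identity, 1 and 11 for macrophage and dendritic genes, 6 and 7 for immediate early genes, and 1 and 4 for genes of nerve, eye and muscle. Among the genes named, Hmga2 and Dlk1 lost the call of E12.5 PL over 8w BM without it (adjusted p = 0.114 and 0.143). Hmga2 also lost it on leaving out any 1 E12.5 PL library or the second of 8w BM. With cyclic loess offsets, another scaling, Hmga2 was at -0.0088 (adjusted p = 0.948). Nor did it pass with total counts, the size factors of DESeq2 within edgeR or 3 groups fitted alone.

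**Figure D2:**
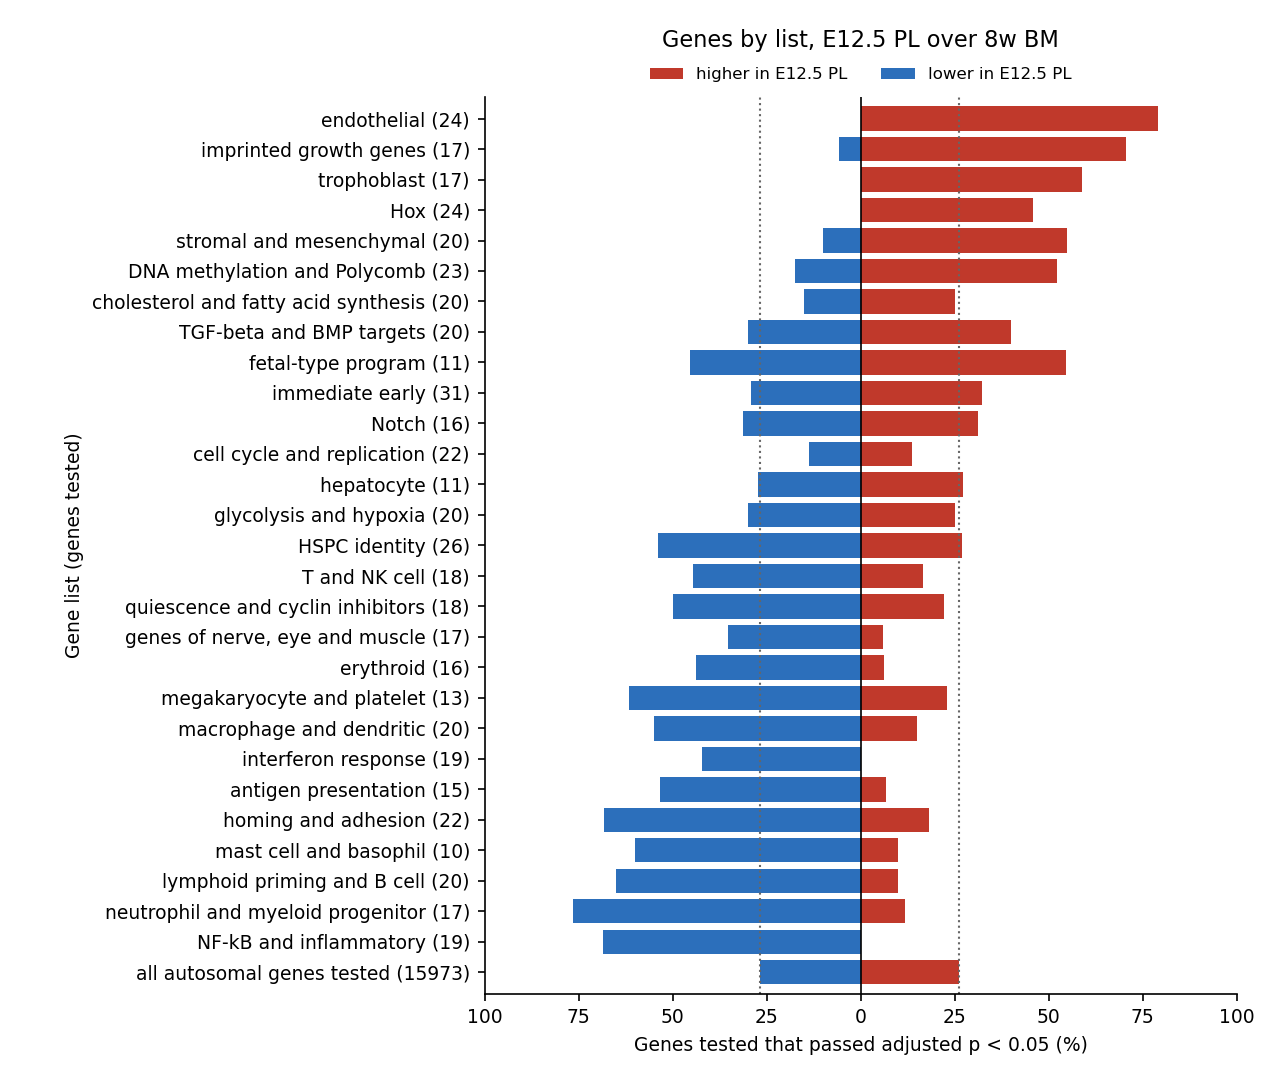
Share of the tested genes of each list that were higher (red, to the right) or lower (blue, to the left) in E12.5 PL than in 8w BM at an adjusted p of 0.05, with the number of genes tested in brackets. Dotted lines mark the shares of all autosomal genes, 26.1% higher and 26.7% lower. The endothelial list has 19 of 24 genes higher and the neutrophil list 13 of 17 lower.

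Genes of stem and progenitor identity were lower more often than higher. Of 26 tested, 14 were lower and 7 higher in E12.5 PL, with a median log2 fold change of -0.36. The higher genes numbered 4 without the third E12.5 PL or the second 8w BM library, and over gene-end regions alone 3 of 25, with a median of -0.70. Ptprc, the gene of the leukocyte phosphatase CD45, had 37.9, 45.1 and 48.3 CPM in E12.5 PL, against 159, 142 and 127 CPM in 8w BM and 123, 154 and 135 CPM in E12.5 FL (-1.71 ± 0.12 over 8w BM, adjusted p = 2.61e-15). Every E12.5 PL library was below every other library for this gene. Lyl1 and Lmo2, which encode partners in the stem cell transcription complex, fell by 1.77 and 1.24 on the log2 scale (adjusted p = 1.10e-13 and 1.20e-11). Runx1, which blood stem cells need in order to arise, had 145, 204 and 188 CPM in E12.5 PL, against 373, 356 and 339.9 CPM in 8w BM (-0.99 ± 0.11, adjusted p = 4.96e-10), and these did not overlap. Cd34, a sialomucin of progenitors and vessels, was also lower (-0.66 ± 0.12, adjusted p = 1.25e-05), as was Hlf, a stem cell transcription factor (-0.43 ± 0.11, adjusted p = 7.70e-04, but 0.749 over gene-end regions alone).

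Kit and Ly6a encode the surface markers that define the sorted fraction. Kit, the stem cell factor receptor, had 140.4, 172 and 159.8 CPM over 16 regions in E12.5 PL, against 81.7, 93.4 and 95.1 CPM in 8w BM (0.80 ± 0.12, adjusted p = 3.12e-07). Over its gene-end regions alone the difference was -0.32 (adjusted p = 0.0531). Ly6a, which encodes Sca-1, has 1 region in the table, with 5.45, 4.49 and 4.24 CPM in E12.5 PL and 2.22, 1.20 and 2.69 CPM in 8w BM (1.24 ± 0.54, adjusted p = 0.0495), where the levels were low in all 9 libraries. Its call was lost on leaving out any 1 E12.5 PL library, the first or second of 8w BM, or the third of E12.5 FL (adjusted p = 0.0536 to 0.196). Gata2, a zinc-finger factor of stem cells and endothelium, had 143, 99.6 and 146 CPM in E12.5 PL and 95.0, 104 and 94.6 CPM in 8w BM (0.40 ± 0.12, adjusted p = 0.00524), with the second E12.5 PL library inside the range of 8w BM. Over its gene-end regions alone Gata2 was lower (-0.70, adjusted p = 0.0349). For Meis1, a partner of HOX proteins, the values were 339 ± 52.9 CPM in E12.5 PL and 338 ± 17.6 CPM in 8w BM (mean ± SD, n = 3 each), and for Mecom, a stem cell zinc-finger factor, 221 ± 28.4 CPM in E12.5 PL and 247 ± 5.08 CPM in 8w BM. Neither passed the test (adjusted p = 0.994 and 0.160). Over gene-end regions alone both passed, Meis1 higher (0.32, adjusted p = 0.0417) and Mecom lower (-0.97, adjusted p = 0.0048). Meis1 also passed with cyclic loess offsets, another scaling (0.34, adjusted p = 0.0037).

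In all 7 lists of blood lineages more genes were lower in E12.5 PL than were higher. In the neutrophil and myeloid progenitor list 13 of 17 tested genes were lower and 2 higher (median -1.24), and in the list of lymphoid priming and B cells 13 of 20 were lower and 2 higher (median -0.92). Itgam, the integrin chain CD11b of myeloid cells, had 23.7, 27.4 and 31.1 CPM in E12.5 PL, against 100.1, 99.6 and 79.0 CPM in 8w BM (-1.76 ± 0.13, adjusted p = 2.08e-14). Flt3, the cytokine receptor of multipotent progenitors, had 49.6, 48.1 and 57.4 CPM in E12.5 PL, against 224, 245 and 217 CPM in 8w BM (-2.15 ± 0.11, adjusted p = 1.95e-18). E12.5 FL was closer to 8w BM than to E12.5 PL for both genes, with 103, 96.2 and 88.4 CPM at Itgam and 178, 194 and 194 CPM at Flt3.

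Ikzf1, the zinc-finger factor Ikaros of lymphoid priming, fell by 1.54 (adjusted p = 1.70e-15) and Dntt, which adds bases at antigen receptor joins, by 1.64 on the log2 scale (adjusted p = 5.51e-12). In the T and NK cell list 8 of 18 genes were lower and 3 higher. The lower ones include Runx3, a factor of cytotoxic lymphocytes, at 75.9, 108 and 111 CPM in E12.5 PL, against 368, 382 and 359 CPM in 8w BM. Bcl11b, a T-lineage factor, was higher in E12.5 PL (1.03 ± 0.17, adjusted p = 2.63e-06), but did not pass over gene-end regions alone (0.66, adjusted p = 0.128). In the macrophage and dendritic list 11 of 20 were lower and 3 higher. Adgre1, which encodes the macrophage antigen F4/80, fell by 2.24 (adjusted p = 1.51e-14) and Mertk, a receptor for dying cells, was higher by 1.60 ± 0.16 (adjusted p = 6.43e-11).

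In the erythroid list 7 of 16 genes were lower and 1 higher. Nfe2, an erythroid and megakaryocyte factor, had 42.8 ± 1.94 CPM in E12.5 PL and 137 ± 6.59 CPM in 8w BM (mean ± SD, n = 3 each). Of the megakaryocyte genes 8 of 13 were lower and 3 higher, and of the mast cell genes 6 of 10 were lower and 1 higher; without the third E12.5 PL library the higher ones were 1 and 2. Gp9, a platelet receptor subunit, fell by 1.97 (adjusted p = 8.19e-11) and Cpa3, a mast cell protease, by 1.43 (adjusted p = 9.53e-07). Cma1, a mast cell chymase, was the gene that was higher (1.85 ± 0.27, adjusted p = 2.08e-07).

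Genes of homing and of the inflammatory response were lower as well. In the homing and adhesion list 15 of 22 genes were lower in E12.5 PL and 4 higher (median -0.80). Cxcr4, the receptor that retains stem cells in the marrow through CXCL12, had 65.2, 75.9 and 81.0 CPM in E12.5 PL, against 222, 221 and 219.9 CPM in 8w BM (-1.57 ± 0.10, adjusted p = 1.80e-16). Itga4, the VLA-4 integrin chain, had 46.5, 46.4 and 49.0 CPM in E12.5 PL, against 148, 162 and 131 CPM in 8w BM (-1.64 ± 0.12, adjusted p = 2.36e-14). Neither gene's groups overlapped, which held for 30.7% of all genes in this direction. The 4 higher members were Itga5, Itga6, Itgb1 and Vcam1, which encode integrins and an adhesion ligand of many tissues, with log2 fold changes of 0.77, 0.77, 0.61 and 2.98.

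No gene of the NF-kB and inflammatory list was higher and 13 of 19 were lower. The chemokine gene Ccl3 had 11.6, 14.3 and 13.7 CPM in E12.5 PL, against 85.7, 74.8 and 80.7 CPM in 8w BM (-2.60 ± 0.15, adjusted p = 1.66e-17), and the cytokine gene Tnf had 6.88, 5.77 and 15.8 CPM in E12.5 PL, against 36.3, 36.6 and 36.4 CPM in 8w BM (-1.95 ± 0.23, adjusted p = 3.41e-09). Of the interferon response genes 8 of 19 were lower and 0 higher, among them Oas3, a sensor of double-stranded RNA (-2.36 ± 0.20, adjusted p = 6.17e-13). With the size factors of DESeq2 1 of the 19 was higher, as without the second E12.5 FL library, and without the second E12.5 PL library 2 were. Of the antigen presentation genes 8 of 15 were lower and 1 higher. Tap2, a peptide transporter for MHC class I, fell by 1.94 (adjusted p = 1.70e-12) and Ciita, the activator of MHC class II genes, by 1.16 (adjusted p = 7.24e-08).

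Against this, endothelial, trophoblast and stromal marker genes were higher in E12.5 PL more often than lower, which hepatocyte genes and those of nerve, eye and muscle were not. Of 24 endothelial genes 19 were higher and 0 lower, with a median log2 fold change of 0.79, and over gene-end regions alone 12 of 23 were higher and 1 lower. Without the first E12.5 PL, the second 8w BM, or the first or second E12.5 FL library 1 was lower. Tek, the angiopoietin receptor TIE2 of vessels and stem cells, had 91.3, 117 and 85.2 CPM in E12.5 PL, against 15.7, 14.4 and 17.4 CPM in 8w BM and 28.4, 39.9 and 34.6 CPM in E12.5 FL (2.63 ± 0.22 over 8w BM, adjusted p = 4.50e-13). Sox17, a factor of arterial endothelium and fetal stem cells, had 171, 211 and 155 CPM in E12.5 PL, against 76.2, 71.7 and 71.9 CPM in 8w BM (1.29 ± 0.12, adjusted p = 9.00e-12), but did not pass over gene-end regions alone (adjusted p = 0.559). Cldn5, a tight junction gene of vessels, had 109, 42.1 and 97.2 CPM in E12.5 PL, against 28.1, 22.0 and 22.5 CPM in 8w BM (1.77 ± 0.20, adjusted p = 1.51e-09). The E12.5 PL libraries differed among themselves here, the second being the lowest of them at Cldn5 and the highest at Tek.

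Of 17 trophoblast genes 10 were higher and 0 lower (median 0.61), and over gene-end regions alone 5 of 10 were higher. Without the first E12.5 PL library 1 was lower. The keratin gene Krt19 had 13.993, 25.4 and 15.8 CPM in E12.5 PL, against 1.33, 1.03 and 1.96 CPM in 8w BM (3.69 ± 0.48, adjusted p = 2.45e-08), and Krt18, a keratin of simple epithelia, had 61.9, 119.7 and 62.4 CPM in E12.5 PL, against 28.8, 26.1 and 32.3 CPM in 8w BM (1.49 ± 0.19, adjusted p = 2.07e-08). The second E12.5 PL library was the highest for both, and over gene-end regions alone Krt18 did not pass (adjusted p = 0.165). Syna, a retroviral envelope gene that fuses trophoblast cells, had 50.3, 53.4 and 63.6 CPM in E12.5 PL, against 23.0, 24.1 and 30.8 CPM in 8w BM (1.11 ± 0.18, adjusted p = 1.53e-06). Gcm1 and Hand1, factors of trophoblast layers, did not pass the test (-0.40 and 0.02, adjusted p = 0.0595 and 0.950).

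Of 20 stromal and mesenchymal genes 11 were higher and 2 lower. Pdgfra, a growth factor receptor of mesenchyme, had 107, 146 and 91.3 CPM in E12.5 PL, against 41.6, 39.9 and 40.8 CPM in 8w BM (1.49 ± 0.15, adjusted p = 6.20e-11). Kitl, the gene of stem cell factor, was higher (1.27 ± 0.20, adjusted p = 8.04e-07) and Runx2, a bone factor that blood progenitors also carry open, was lower (-1.06 ± 0.10, adjusted p = 1.10e-11). Of 11 hepatocyte genes 3 were higher and 3 lower. Alb, the albumin gene, had 11.1, 20.1 and 12.005 CPM in E12.5 PL and 12.2, 14.4 and 10.8 CPM in 8w BM and did not pass the test (adjusted p = 0.499).

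The whole lists show how far these levels moved. Summed over its tested genes, the endothelial list had 2940.4, 2086 and 2789.6 CPM in E12.5 PL, against 1668, 1579 and 1634 CPM in 8w BM and 1869.6, 1887 and 1903 CPM in E12.5 FL. The trophoblast list had 826, 991 and 854 CPM in E12.5 PL, against 539, 531 and 578 CPM in 8w BM. The stromal list had 842, 923 and 863 CPM in E12.5 PL, against 758, 739.6 and 752 CPM in 8w BM. None of the 3 lists overlapped between the groups, and no tested member of these lists had a mean of 0 CPM in either group. Most of the other lists did not overlap either, so this is not particular to the 3. The hepatocyte list was among them, with 311, 427 and 331 CPM in E12.5 PL, against 264, 284 and 279 CPM in 8w BM. The stem and progenitor list had 3033, 3051 and 3163 CPM in E12.5 PL, against 3899, 3955 and 3800.3 CPM in 8w BM. These levels move with the lower blood genes described above, and their part in that result was not tested.

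**Figure D3:**
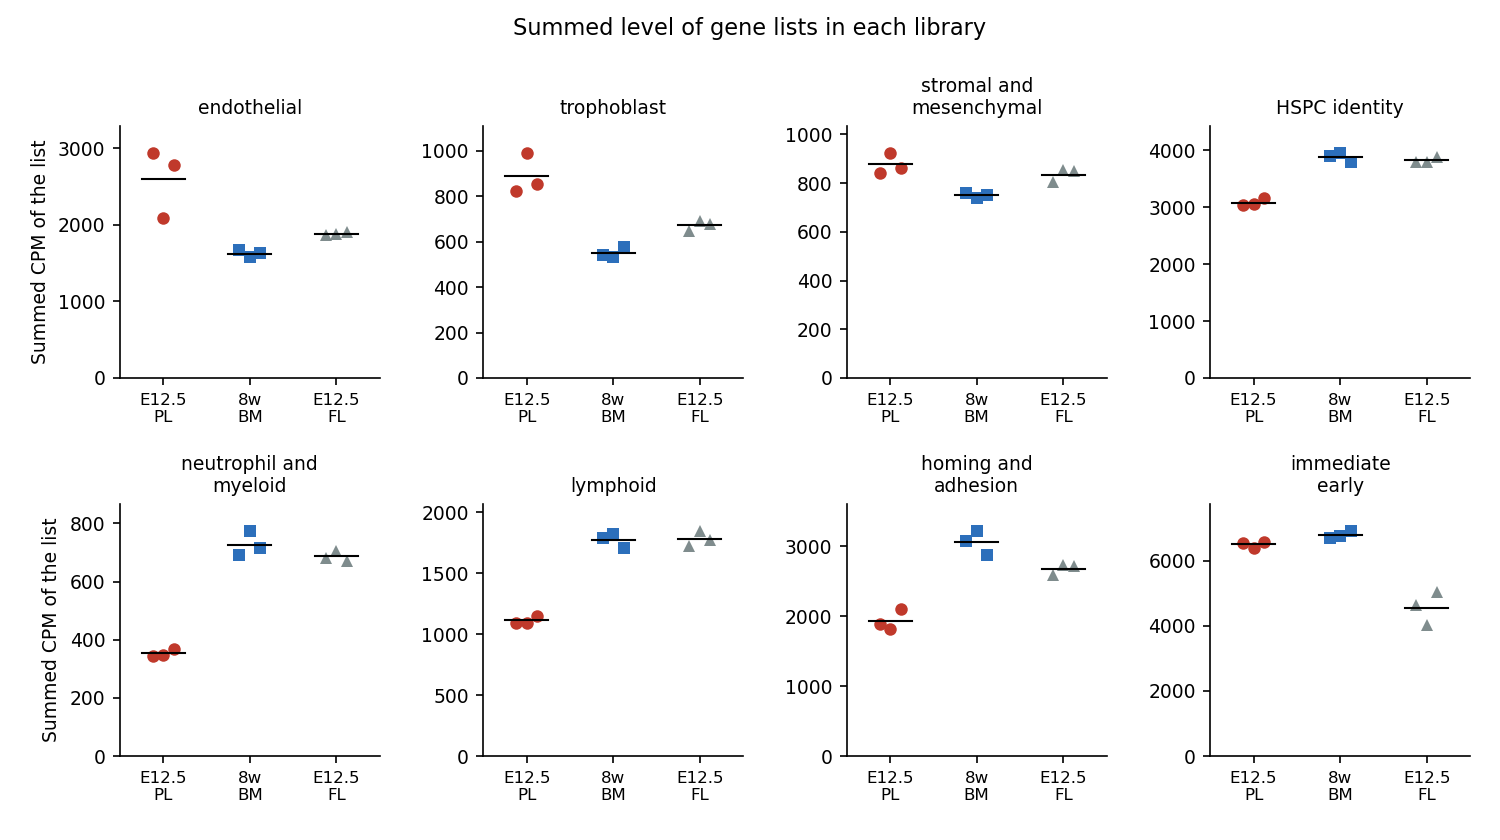
Summed CPM of 8 gene lists in each library of E12.5 PL, 8w BM and E12.5 FL, with 1 point per library and a black line at the group mean; each axis starts at 0. The endothelial, trophoblast and stromal means are highest in E12.5 PL and the progenitor, myeloid, lymphoid and homing means are lowest there, while the immediate early mean is lowest in E12.5 FL.

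The genes of the fetal program did not move one way. Of 11 tested, 6 were higher in E12.5 PL and 5 lower, or 3 lower without the third E12.5 PL library. Lin28b, the RNA-binding protein that drives fetal-type haematopoiesis, had 65.5, 38.3 and 56.5 CPM in E12.5 PL, against 19.3, 22.5 and 23.966 CPM in 8w BM and 67.9, 60.6 and 68.0 CPM in E12.5 FL (1.28 ± 0.18 over 8w BM, adjusted p = 1.33e-07). Igf2bp1, another fetal RNA-binding protein, had 71.1, 77.6 and 71.3 CPM in E12.5 PL, against 12.8, 7.74 and 17.1 CPM in 8w BM and 67.9, 49.2 and 66.5 CPM in E12.5 FL (2.57 ± 0.24, adjusted p = 1.43e-11). Igf2bp3 followed it (2.04 ± 0.15, adjusted p = 1.52e-14). For these 3 genes the fetal groups were both above 8w BM, and none passed the test between E12.5 PL and E12.5 FL (adjusted p = 0.141, 0.324 and 0.682).

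Hmga2, a chromatin protein of fetal stem cells, behaved otherwise, with 127, 118 and 128 CPM in E12.5 PL and 139.6, 147 and 151 CPM in 8w BM, against 237, 195 and 208 CPM in E12.5 FL. It was lower than in E12.5 FL in both groups (-0.78 ± 0.10 and -0.55 ± 0.09, adjusted p = 1.20e-08 and 3.02e-05). Bcl11a, a lymphoid factor that silences fetal globin, was lower in E12.5 PL than in 8w BM (-1.48 ± 0.09, adjusted p = 1.29e-16).

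Imprinted growth genes were higher as a group. Of 17 tested, 12 were higher in E12.5 PL and 1, Dlk1, was lower (-0.31, adjusted p = 0.0178), with a median log2 fold change of 1.20. None was lower without the second E12.5 PL or the third 8w BM library, with 3 groups fitted alone or with cyclic loess offsets, and 2 were without the second 8w BM library. Plagl1, a zinc-finger factor of the imprinted network, had 67.4, 53.0 and 69.2 CPM in E12.5 PL, against 16.2, 11.7 and 19.8 CPM in 8w BM and 28.1, 31.8 and 26.020 CPM in E12.5 FL (2.01 ± 0.18 over 8w BM, adjusted p = 5.19e-12). Zim1, the neighbour of Peg3, had 42.2, 33.1 and 34.1 CPM in E12.5 PL, against 3.10, 1.72 and 4.40 CPM in 8w BM (3.61 ± 0.36, adjusted p = 3.80e-11). Igf2, the fetal growth factor, and H19, the RNA gene beside it, were higher by 1.65 and 1.34 (adjusted p = 1.21e-07 and 9.30e-08), and Mest and Meg3 by 1.90 and 1.49. Counts here do not tell the parental alleles apart.

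Homeobox and Polycomb genes were also higher in E12.5 PL more often than lower. Of 24 Hox genes 11 were higher and 0 lower (median 0.47). Hoxa13, the most distal gene of its cluster, had 43.2, 39.5 and 38.6 CPM in E12.5 PL, against 7.75, 9.80 and 15.2 CPM in 8w BM (1.90 ± 0.22, adjusted p = 1.43e-09), and Hoxa5 had 23.954, 22.9 and 20.008 CPM in E12.5 PL, against 3.10, 5.85 and 6.11 CPM in 8w BM (2.14 ± 0.34, adjusted p = 1.47e-06). Hoxa9 and Hoxa10, the members best known in blood stem cells, did not pass the test (-0.01 and 0.07, adjusted p = 0.960 and 0.788). Of the 23 genes of DNA methylation and Polycomb complexes 12 were higher and 4 lower. Jarid2 and Cbx7, Polycomb subunits, were higher by 0.79 ± 0.10 and 0.97 ± 0.16 (adjusted p = 1.14e-08 and 2.70e-06), though Jarid2 did not pass over gene-end regions alone (adjusted p = 0.0684). Dnmt3a, Tet2 and Tet3, enzymes that add or oxidise DNA methylation, were 3 of the 4 lower genes (-0.98 ± 0.11 at Dnmt3a, -0.57 at Tet2 and -0.51 at Tet3), and the fourth was Dnmt3l (-1.49, adjusted p = 0.0186).

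The remaining lists were mixed. Quiescence genes and cyclin inhibitors were lower in 9 and higher in 4 of 18, with Rgs1 lower (-3.88 ± 0.20) and Gadd45g, a stress sensor, higher (1.25 ± 0.12). In the immediate early list 10 of 31 were higher and 9 lower, among TGF-beta and BMP targets 8 and 6 of 20, in the Notch list 5 and 5 of 16, among genes of cholesterol and fatty acid synthesis 5 and 3 of 20, in the glycolysis and hypoxia list 5 and 6 of 20, and in the cell cycle list 3 and 3 of 22. Genes of nerve, eye and muscle, taken as a list of tissues that should be absent, were higher in 1 and lower in 6 of 17. With cyclic loess offsets the immediate early list had 14 higher and 3 lower, and without the third 8w BM library 6 and 7. The higher genes of cholesterol and fatty acid synthesis numbered 9 with those offsets and 3 without the first 8w BM library, and those of the cell cycle 5 with the offsets.

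The second question is which regions E12.5 PL and 8w BM share against E12.5 FL. Both comparisons use the same E12.5 FL libraries, so their calls are not independent, and a fold change of at least 2 in each was also asked for. Against E12.5 FL, 25573 regions (26.4%) were higher and 22442 (23.2%) lower in E12.5 PL, and 10377 (10.7%) were higher and 5525 (5.70%) lower in 8w BM. Cyclic loess offsets gave 30691 regions in either direction for E12.5 PL, against 48015 with TMM, and leaving out the second 8w BM library gave 9404 for 8w BM, against 15902 with it. With a fold of at least 2, 18302 regions (18.9%) were higher and 19395 lower in E12.5 PL, and 5.26% higher and 5.04% lower in 8w BM. At the adjusted p alone 3549 regions (3.66%) were higher in both. With the minimum fold, 692 regions (0.714% of those tested) were higher in both and 1710 (1.76%) were lower in both, or 721 and 1520 without the third 8w BM library. The 692 were 3.78% of the regions higher in E12.5 PL, below the 5.26% of all regions higher in 8w BM, and 13.6% of the regions higher in 8w BM, below the 18.9% of all higher in E12.5 PL. Without the minimum fold this order was reversed. Of the 25573 regions then higher in E12.5 PL, 3549 were also higher in 8w BM, a share above the 10.7% of all. The 1710 were 8.82% of the regions lower in E12.5 PL, above the 5.04% of all regions lower in 8w BM. These shares carry no test. Where the liver libraries were not shared, with 8w BM set against E16.5 FL, the numbers were 446 and 868, and with E12.5 PL set against E16.5 FL they were 426 and 1051.

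The 692 shared higher regions lay near or in 542 genes. Between E12.5 PL and 8w BM themselves, 482 of the 692 (69.7%) did not pass the test, which does not show that they were equal. A region 4894 bp from Klf9, a Kruppel-like factor that glucocorticoids induce, at chr19:23134729-23136332 had 98.4, 106 and 108 CPM in E12.5 PL and 85.7, 109 and 81.9 CPM in 8w BM, against 18.1, 16.2 and 19.9 CPM in E12.5 FL. The log2 fold changes over E12.5 FL were 2.52 ± 0.17 in E12.5 PL and 2.36 ± 0.17 in 8w BM (adjusted p = 2.44e-16 and 1.68e-15). At an end of Bhlhe40, a transcriptional repressor of clock and stress responses, chr6:108660175-108660868 had 73.8, 74.9 and 71.5 CPM in E12.5 PL and 75.5, 96.4 and 64.3 CPM in 8w BM, against 20.2, 19.2 and 19.9 CPM in E12.5 FL. All 6 libraries of E12.5 PL and 8w BM lay above all 3 of E12.5 FL, as the rule that chose these regions asks.

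The focal adhesion gene Zyx had 132, 144 and 134 CPM in E12.5 PL and 136, 137 and 139 CPM in 8w BM at its printed promoter (chr6:42349546-42350150), against 53.0, 61.1 and 58.9 CPM in E12.5 FL. Nab2, a corepressor of EGR proteins, had 90.2, 71.8 and 75.0 CPM in E12.5 PL and 53.0, 70.9 and 41.3 CPM in 8w BM at chr10:127667558-127668570, against 17.2, 19.9 and 18.4 CPM in E12.5 FL. Furin, the protease that matures TGF-beta, had 29.8, 17.6 and 31.7 CPM in E12.5 PL and 34.2, 36.5 and 34.0 CPM in 8w BM at chr7:80403970-80404566, against 7.70, 6.56 and 7.61 CPM in E12.5 FL. The other 4 regions belong to Irf2bpl (chr12:86833615-86834187), Ggct (chr6:54992665-54993261), Lekr1 (chr3:65658723-65659761) and Gna13 (chr11:109347563-109348115). Their log2 fold changes over E12.5 FL were 1.64 ± 0.16 to 2.89 ± 0.34 in E12.5 PL and 1.37 ± 0.16 to 2.49 ± 0.34 in 8w BM, the lowest at Ggct and the highest at Gna13.

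**Figure D4:**
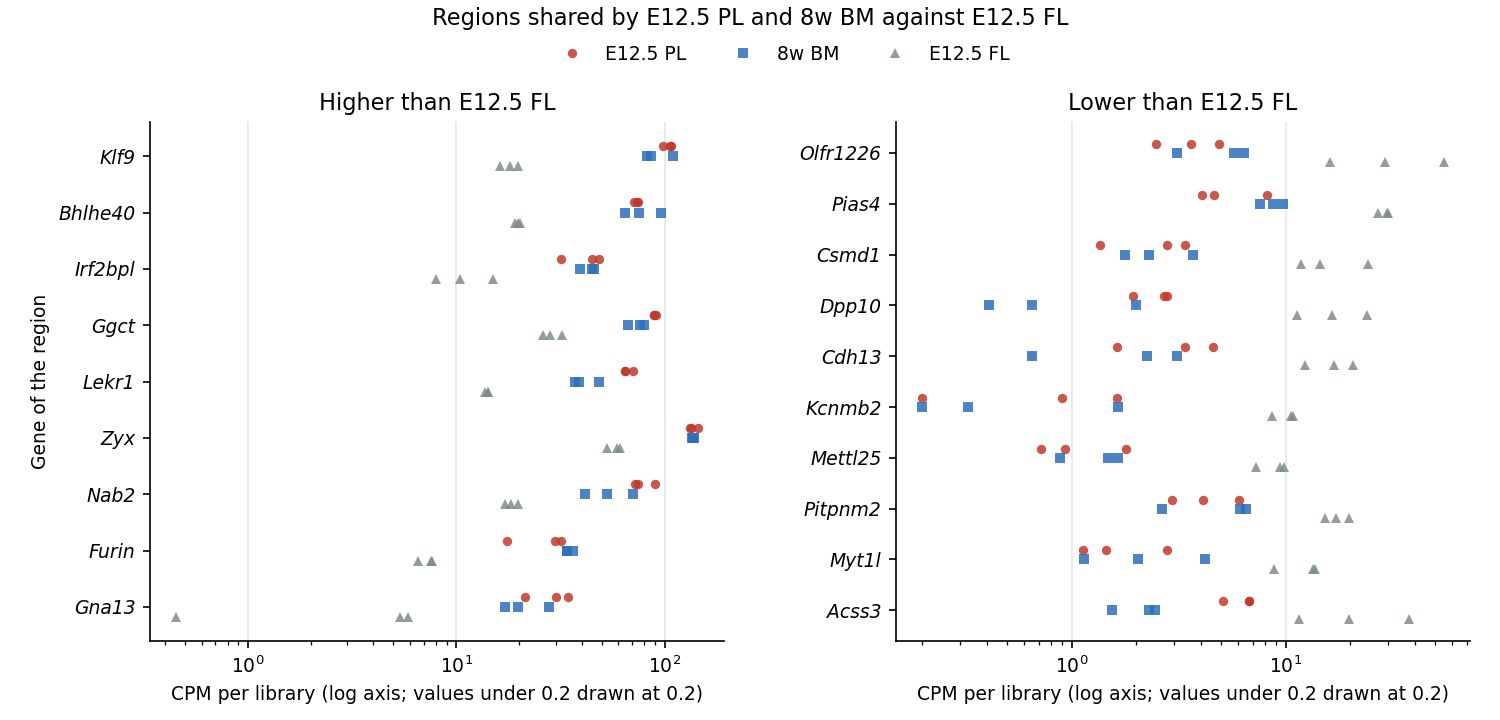
CPM per library (log axis) of the regions named as shared by E12.5 PL and 8w BM against E12.5 FL, 9 that were higher (left) and 10 that were lower (right), with 1 point for each of the 3 libraries of E12.5 PL (red), 8w BM (blue) and E12.5 FL (grey). The red and blue points overlap in most rows, and all of them lie apart from the grey ones, as the rule for these regions asks.

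By summed counts, 809 genes (5.06% of those tested) were higher and 923 (5.78%) lower in both groups than in E12.5 FL at the adjusted p alone, or 710 and 824 without the third 8w BM library. The higher ones numbered 530 without the second 8w BM library and 520 with cyclic loess offsets. In E12.5 PL over E12.5 FL 49.8% of genes passed (22.7% higher and 27.1% lower), and in 8w BM over E12.5 FL 30.0% did (15.1% higher and 14.9% lower). Immediate early genes, the first to be transcribed after a growth factor or stress signal, had 17 of 31 members higher in both and 0 lower. Their number was 11 without the second E12.5 FL library, 16 without the third 8w BM library, where Fos was lost, and 13 with cyclic loess offsets. With 8w BM set against E16.5 FL it was 12, and with E12.5 PL set against E16.5 FL it was 15. Klf9 had 218, 249.443 and 239 CPM in E12.5 PL and 182, 218 and 181 CPM in 8w BM, against 74.7, 74.3 and 78.1 CPM in E12.5 FL. Atf3, a stress-induced bZIP factor, had 300.5, 314 and 315 CPM in E12.5 PL and 172, 215 and 201 CPM in 8w BM, against 119, 130.3 and 119.8 CPM in E12.5 FL (1.33 ± 0.12 and 0.68 ± 0.12, adjusted p = 3.42e-12 and 3.23e-05).

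Btg2, an antiproliferative gene, had 286, 324 and 331 CPM in E12.5 PL and 266, 254 and 293 CPM in 8w BM, against 161, 149 and 177 CPM in E12.5 FL (0.95 ± 0.11 and 0.74 ± 0.11, adjusted p = 4.62e-09 and 4.17e-06). Nr4a3, an orphan nuclear receptor, was higher by 0.58 ± 0.12 in E12.5 PL and 0.95 ± 0.12 in 8w BM. The other members higher in both were Fos, Fosb, Fosl2, Junb and Jund of the AP-1 family, the zinc-finger factors Egr1, Egr3, Klf4 and Klf10, and Ier2, Nr4a1, Nr4a2 and Rhob. The summed level of the list was 6541, 6396 and 6590.5 CPM in E12.5 PL and 6715, 6775 and 6916 CPM in 8w BM, against 4627, 4017 and 5039 CPM in E12.5 FL.

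Genes that TGF-beta signals induce followed, with 6 of 20 higher in both and 0 lower, and again 6 with either group set against E16.5 FL. They were Smad7, Ski, Skil, Tgif1, Bambi and Pmepa1, all of them known to restrain the pathway. Ski had 292, 267 and 319 CPM in E12.5 PL and 697, 708 and 637 CPM in 8w BM, against 227, 221 and 226 CPM in E12.5 FL (0.38 ± 0.12 and 1.60 ± 0.12, adjusted p = 0.00753 and 1.34e-12), and E12.5 PL was well below 8w BM (-1.22 ± 0.12, adjusted p = 1.95e-11). Smad7, the inhibitory SMAD, had 356, 421 and 382 CPM in E12.5 PL and 426, 431 and 350.0 CPM in 8w BM, against 246, 217 and 241 CPM in E12.5 FL. Skil was higher by 0.74 ± 0.11 in E12.5 PL and 1.20 ± 0.11 in 8w BM, and Pmepa1 by 0.71 ± 0.20 and 1.38 ± 0.20, a call that E12.5 PL lost without its second library (adjusted p = 0.101). By single regions Smad7 and Pmepa1 each held 4 shared higher regions of 18 tested, and Ski and Skil 3 each, of 12 and 10.

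Sterol synthesis gave 5 of 20 genes higher in both (Insig1, Stard4, Lss, Sqle and Cyp51) and 0 lower, or 3 without the third E12.5 FL library and 4, Sqle being lost, without the third 8w BM library. Insig1, which restrains sterol synthesis, had 194, 189 and 181 CPM in E12.5 PL and 187, 206 and 181 CPM in 8w BM, against 117, 116 and 117 CPM in E12.5 FL (0.69 ± 0.10 and 0.71 ± 0.10, adjusted p = 2.76e-07 and 7.65e-07). Among the quiescence genes 4 of 18 were higher in both, the cyclin inhibitors Cdkn1a, Cdkn1b and Cdkn2d, and Egr1. Their number was 2 without the second E12.5 FL library, where Cdkn2d and Egr1 did not pass in E12.5 PL, 2 with 8w BM set against E16.5 FL, and 1 over gene-end regions alone. Cdkn1a, which encodes p21, had 120.5, 124 and 126 CPM in E12.5 PL and 129.6, 133 and 139 CPM in 8w BM, against 86.1, 69.9 and 80.7 CPM in E12.5 FL (0.65 ± 0.13 and 0.76 ± 0.13, adjusted p = 6.72e-05 and 2.34e-05), though over gene-end regions alone E12.5 PL gave -0.25 (adjusted p = 0.671). In the glycolysis and hypoxia list 4 of 20 were higher in both (Ndrg1, Pfkfb3, Bnip3 and Aldoa) and in the interferon list 3 of 19 (Cxcl10, Rsad2 and Ifit3). Over gene-end regions alone these were 1 of 17 and 5 of 18, and without the third 8w BM library Ifit3 was lost, as it was without the second of 8w BM or the first or second of E12.5 FL. Aldoa was lost without the second E12.5 FL library, or the first or second of 8w BM.

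In the remaining lists at most 1 gene was higher in both. These single genes were Cd9 among the megakaryocyte genes, Hes1 in the Notch list, Mcm3 in the cell cycle list, Nfkbia in the NF-kB list and Ezh2 in the Polycomb list. Of these 5, 4 depended on single libraries: Cd9 was lost on leaving out any 1 library of 8w BM or E12.5 FL, Mcm3 without the second or the third of 8w BM or the first or the third of E12.5 FL, and Hes1 and Ezh2 without the second of 8w BM. The NF-kB list had 5 genes higher in both without the first E12.5 PL library, and 3 without the third E12.5 PL library, without the third E12.5 FL library or with DESeq2. Hes1, a target of Notch, had 285, 301 and 306 CPM in E12.5 PL and 221, 256 and 182 CPM in 8w BM, against 183, 142 and 163 CPM in E12.5 FL. Lower in both were Hmga2, the imprinted growth inhibitor gene Grb10, Ighm, Alb, Hoxb6, Hoxc4, Eomes, Themis, Prl3b1, Lum, Prrx1, Ccr9 and Rrm2. Without the third 8w BM library Ccr9, Lum, Prl3b1 and Themis were lost (adjusted p = 0.0543 to 0.102 in 8w BM over E12.5 FL). Alb had 11.1, 20.1 and 12.005 CPM in E12.5 PL and 12.2, 14.4 and 10.8 CPM in 8w BM, against 20.6, 29.1 and 26.9 CPM in E12.5 FL (-0.81 ± 0.24 and -1.02 ± 0.24, adjusted p = 0.00452 and 0.00134), and all 6 libraries were below the 3 of E12.5 FL, the second of E12.5 PL just so.

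Of the 1710 shared lower regions 34.9% had no such gene within 50 kb (other RNA genes, pseudogenes and predicted genes were not counted), against 13.3% of all regions and 10.983% of the shared higher ones, and 7.19% lay at gene ends, against 17.9% of all. Peaks of at least 2 E12.5 FL lists lay over 26.6% of the shared lower regions, against 19.1% of all tested, so most of them had no such peak in liver. In Csmd1, chr8:16263935-16264552 had 3.37, 1.35 and 2.78 CPM in E12.5 PL and 3.68, 2.29 and 1.77 CPM in 8w BM, against 11.8, 24.1 and 14.5 CPM in E12.5 FL. In Dpp10, which encodes a subunit of potassium channels, chr1:123544329-123544907 had 1.92, 2.70 and 2.78 CPM in E12.5 PL and 0.409, 0.655 and 1.99 CPM in 8w BM, against 11.3, 23.9 and 16.4 CPM in E12.5 FL. The region 2350 bp from the odorant receptor gene Olfr1226 (chr2:89196382-89196975) had 3.61, 2.48 and 4.86 CPM in E12.5 PL and 5.73, 6.39 and 3.09 CPM in 8w BM, against 16.1, 54.8 and 29.2 CPM in E12.5 FL. The second E12.5 FL library was the highest in all 3, and without it the shared lower regions numbered 996, against 1710 with it.

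Pias4, a SUMO ligase gene, had 8.18, 4.05 and 4.63 CPM in E12.5 PL and 7.57, 8.68 and 9.72 CPM in 8w BM at chr10:81161966-81162710, against 29.9, 29.7 and 27.0 CPM in E12.5 FL, where the liver libraries were alike. The other 6 regions lay in or at Cdh13, Kcnmb2, Mettl25, Pitpnm2, Myt1l and Acss3, with log2 fold changes over E12.5 FL of -3.52 ± 0.58 to -1.89 ± 0.33 in E12.5 PL and -3.89 ± 0.58 to -1.74 ± 0.30 in 8w BM. The count depended on scaling. Total counts without TMM gave 3287 shared lower and 335 shared higher regions, and cyclic loess offsets gave 923 and 852. The median level of regions without a gene was 3.25 ± 0.192 CPM in E12.5 PL and 3.18 ± 0.2004 CPM in 8w BM, against 3.68 ± 0.462 CPM in E12.5 FL (mean ± SD of library medians, n = 3 each), and its part in the result was not tested.

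The other developmental groups were part of the joint fit but of none of the contrasts that chose the sets; fitted without them, the shared regions numbered 527 higher and 1546 lower. The levels in E12.5 FL and 8w BM follow from the rule. The median level of the shared higher regions was 3.68 CPM in E12.5 FL, 5.43 CPM in E16.5 FL, 8.08 CPM in perinatal BM, 9.37 CPM in 1w BM and 10.3 CPM in 3w BM, beside 11.3 CPM in 8w BM. In E12.5 PL it was 12.498 CPM. The shared lower regions ran the other way, at 7.25 CPM in E12.5 FL, 5.12 CPM in E16.5 FL, 4.46 CPM in perinatal BM, 3.45 CPM in 1w BM and 2.22 CPM in 8w BM.

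**Figure D5:**
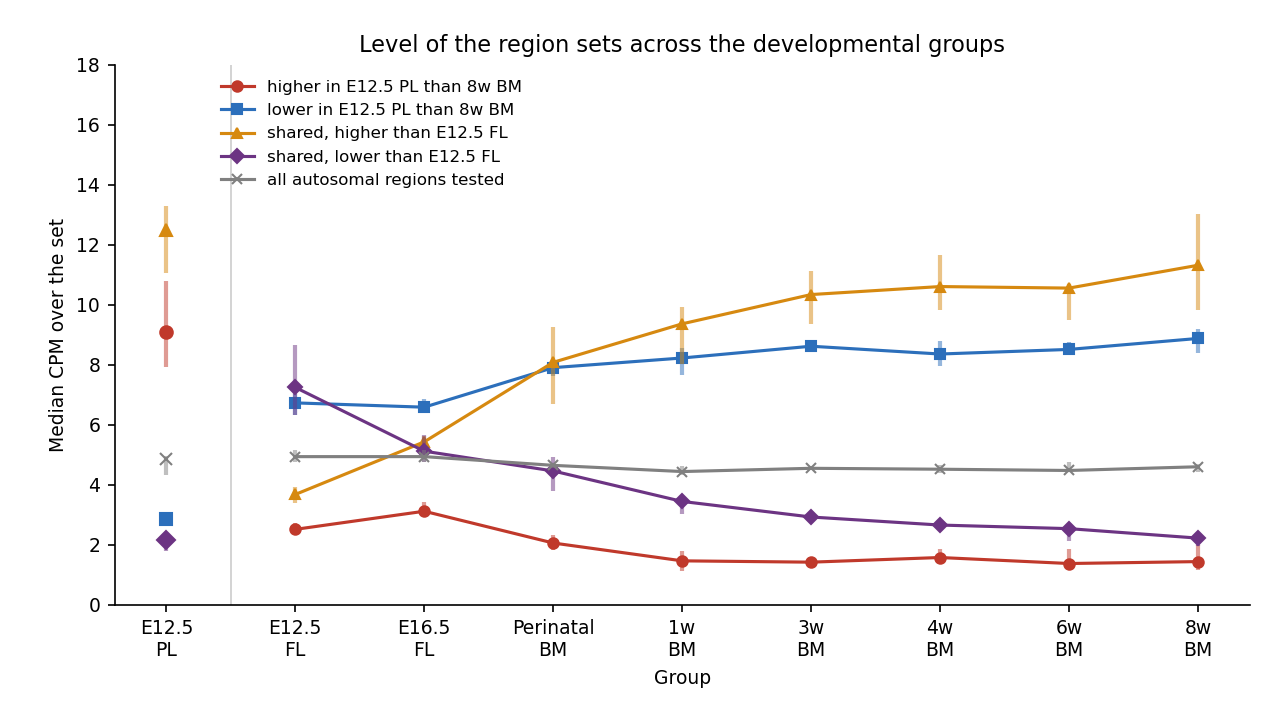
Median CPM of 4 sets of regions and of all autosomal regions in E12.5 PL and in the 8 groups from E12.5 FL to 8w BM; points are medians of group means and vertical bars span the library medians. The shared higher set lies, between the ends that its rule fixed, at 5.43 CPM in E16.5 FL rising to 10.3 CPM in 3w BM, while the regions higher in E12.5 PL stay between 1.38 and 3.12 CPM in every other group.

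The regions higher in E12.5 PL than in 8w BM had a median of 9.08 CPM in E12.5 PL, against 2.51 CPM in E12.5 FL, while it was 3.12 CPM in E16.5 FL. From 1w to 8w BM their median stayed between 1.38 and 1.58 CPM. Those lower in E12.5 PL had a median of 2.85 CPM in E12.5 PL, and already 6.73 CPM in E12.5 FL at the same embryonic day.

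Promoter sequence differed between the sets. RefSeq windows of 300 bases (250 before and 50 after a start) covered by at least 150 bases of a tested region numbered 11835, and 7 patterns were searched on both strands. Of 748 promoters lower in E12.5 PL than in 8w BM by a fold of at least 2, 82.8% held fewer than 10 CpG, against 29.5% of 1867 higher promoters and 21.5% of all. Shares of patterns are therefore also given within the promoters of fewer than 10 CpG, called CpG-poor. They describe these windows and carry no test, and a match is not a bound site.

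The AP-1 pattern TGACTCA was in 8.52% of the promoters higher in E12.5 PL and in 5.75% of those lower, and among CpG-poor promoters in 17.3% and 6.30%. All promoters in tested regions had it in 4.49%, the CpG-poor ones among them in 10.1%, and all 32851 windows of the RefSeq table in 5.20%. Rcan1 and Mrtfb, printed above, carry it 1 time each. The region over the Mrtfb start, a coactivator of serum response factor, had 33.0, 32.4 and 34.9 CPM in E12.5 PL, against 1.02, 0.164 and 2.21 CPM in 8w BM (4.95 ± 0.44, adjusted p = 3.12e-14).

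The RUNX pattern TGTGGT ran the other way, in 11.1% of the promoters higher in E12.5 PL and 33.7% of those lower, and among CpG-poor ones in 18.4% and 36.3% (all windows of the RefSeq table, 16.8%). The PU.1 pattern GAGGAAGT was in 2.25% of the higher and 13.0% of the lower promoters, and among CpG-poor ones in 3.09% and 13.9% (all windows, 3.20%). All promoters in tested regions had TGTGGT in 13.6% and GAGGAAGT in 3.61%, and the CpG-poor ones among them in 24.7% and 7.71%. The printed Runx3 promoter carries TGTGGT 2 times, and its region had 6.01, 5.85 and 9.49 CPM in E12.5 PL, against 68.3, 65.8 and 64.3 CPM in 8w BM (-3.21 ± 0.22, adjusted p = 8.00e-18). At Arhgap30, a haematopoietic GTPase-activating protein, the region had 6.49, 7.65 and 11.8 CPM in E12.5 PL, against 53.4, 70.7 and 49.5 CPM in 8w BM (-2.74 ± 0.22, adjusted p = 8.26e-16).

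The TEAD pattern GGAATG, the GATA pattern AGATAA, the ETS pattern CCGGAA and the SP and KLF pattern GGGCGG completed the search, and CCGGAA and GGAATG can share bases. GGAATG was in 15.6% of the promoters higher in E12.5 PL and 12.3% of those lower (all windows, 14.7%), and AGATAA in 7.87% and 12.6% (all windows, 11.2%). Among CpG-poor promoters GGAATG was in 21.8% and 12.6%, and AGATAA in 16% and 14.2%. CCGGAA was in 13.9% and 10.0%, and among CpG-poor promoters in 6.91% and 8.72% (all windows, 14.9%). GGGCGG was in 62.8% and 23.1%, and among CpG-poor promoters in 22.0% and 14.9% (all windows, 35.7%). All promoters in tested regions had GGAATG in 11.7%, AGATAA in 6.43%, CCGGAA in 24.8% and GGGCGG in 63.1%. The CpG-poor ones among them had these patterns in 15.4%, 14.7%, 9.95% and 20.6%. Without the third 8w BM library the shares of TGACTCA became 7.98% and 6.22%, and those of TGTGGT 11.4% and 33.7%.

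In the 72 promoters of shared higher regions TGACTCA was in 12 (16.7%), 10 of them among the 26 of fewer than 10 CpG. GAGGAAGT was in 0 of the 72 and TGTGGT in 9. Without the third 8w BM library the promoters numbered 86, with TGACTCA in 18, GAGGAAGT in 2 and TGTGGT in 11. In the 64 promoters of shared lower regions TGACTCA was in 1. The printed Zyx promoter carries TGACTCA 1 time, as does Upp1, a uridine phosphorylase gene, whose region had 41.1, 31.3 and 28.9 CPM in E12.5 PL and 16.4, 23.1 and 17.2 CPM in 8w BM, against 10.2, 6.79 and 8.59 CPM in E12.5 FL. The log2 fold changes of Upp1 over E12.5 FL were 1.98 in E12.5 PL and 1.15 in 8w BM (adjusted p = 2.38e-09 and 4.37e-04).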

How the data were processed

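ATAC-seq was measured in LSK cells, and the comparison uses 3 E12.5 PL, 3 8w BM and 3 E12.5 FL libraries. The authors deposited raw counts per region for the 26 developmental libraries, scaled in no way, and peak lists per library with a fold enrichment (a ratio to the local background) and a −log10 q for each peak as deposited. MACS2, HOMER, DiffBind, deepTools and Trim Galore were used on build mm10, per the submitters' processing notes. The aligner, the shift of reads for the Tn5 cut, duplicate removal and the merging of regions are not given in the sources used here. Duplicate or multiply mapped reads, if kept, would raise counts in repeats. Columns of the count table that match no sample numbered 0.

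After a filter on low values (minimum count 10) and TMM normalisation, edgeR 4.0.16 (R 4.3.3) fitted 9 groups together and gave a quasi-likelihood test, with Benjamini-Hochberg adjustment over the whole table at 0.05, and autosomal rows were reported. DESeq2 1.42.0 and limma 3.58.1 (cyclic loess) served as alternatives. Total counts per library are given in the report; low counts widen the standard errors. A region took the nearest named protein-coding gene or list member within 50 kb from RefSeq spans (GRCm38.p6), and gene values sum all such regions, so levels are not compared between genes. Named regions were the 12 of smallest p in each direction (10 for shared regions) with a fold of at least 2, a mean above the median and no overlap of libraries, 1 per gene, predicted genes left out; 2 of the regions this gives are not reported here. Named genes were at most 4 called members of smallest p per list plus 15 fixed ones. The members and lists were chosen with earlier results of these data known. Peaks were matched to regions by an overlap of at least 1 bp. On simulated counts for E12.5 PL over 8w BM, the region fit found 23.0% of 100 regions changed 2-fold and 95.0% of 100 changed 4-fold, and 4.07% of its calls were false. The gene fit found 61.0% and 100.0%, with 4.17% false. The simulation changed far fewer regions and genes than passed in the data, and gave all of them the same spread. Its shares are therefore not the recovery in the real data. Replicates differed beyond sampling noise in every pair, so none were merged.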

Additional observations from a re-analysis of the deposited data

How the results depend on the processing

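The direction and the call of the 42 named regions held under each alternative run (1037 values). Of the values of named genes, 3044 kept both, 90 kept the direction but no longer passed, 3 passed newly and 16 changed sign, the cause of which was not tested. The 3 new passes were Meis1 over gene-end regions alone (0.32) and with cyclic loess offsets (0.34), and Mecom over gene-end regions alone (-0.97). Over gene-end regions alone, E12.5 PL over 8w BM became -0.32 for Kit, 0.082 for Hmga2, -0.70 for Gata2, -1.70 for Alb, 1.29 for Cd200r3, 0.28 for Ltbp3 and 0.18 for Notch2, E12.5 PL over E12.5 FL became -0.25 for Cdkn1a and -0.18 for Bnip3, and 8w BM over E12.5 FL became -0.38 for Cd9. Mecom became 0.12 with cyclic loess offsets and Alb -0.10 without the second E12.5 PL library (range over left-out libraries -0.10 to 0.37). Meis1, at 0.00, became -0.0021 with autosomal regions alone, -0.12 without the second E12.5 PL library, and -0.02 without the first or without the third 8w BM library (range over left-out libraries -0.12 to 0.095). With cyclic loess offsets 30691 regions passed in E12.5 PL over E12.5 FL, against 48015. Shared higher regions numbered 335 with total counts, 3549 at the adjusted p alone, 446 with 8w BM against E16.5 FL and 426 with E12.5 PL against E16.5 FL, where 692 were reported. Shared lower regions numbered 3287 with total counts, 923 with loess offsets, 868 and 1051 with those E16.5 FL settings, where 1710 were reported. Leaving out 1 library at a time gave 46434 to 53187 regions for E12.5 PL over 8w BM, 38836 to 48091 for E12.5 PL over E12.5 FL and 9404 to 16669 for 8w BM over E12.5 FL, the lowest without the second 8w BM library. It gave 491 to 721 shared higher and 996 to 1884 shared lower regions, with 996 without the second E12.5 FL library and 1065 without the second 8w BM library. It gave 7402 to 8664 genes, a gene-end share of counts higher by 2.94 to 4.59 percentage points, and a ratio of peak numbers of 0.650 to 0.848. With the 3 groups fitted alone, 48991 regions passed in E12.5 PL over 8w BM, against 53060 in the joint fit. In 8w BM over E12.5 FL 12629 passed, against 15902. The cause of these changes was not tested. Without regions of 1000 CPM or more, an alternative chosen after seeing the data, the gene-end share was higher by 4.34 points. Of the calls of E12.5 PL over 8w BM 52.7% were higher with TMM, 65.2% with the size factors of DESeq2, 65.6% with DESeq2 itself, 48.7% with total counts and 55.9% with loess offsets. A replicate block gave 53084 regions; same-numbered libraries correlated at -0.0788 to 0.0178 in their deviations, so the numbers do not pair the samples. Of simulated 2-fold changes of regions 23.0% were found, where far fewer regions were changed than passed in the data. Depth was not varied there, so its part was not tested.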

Other observations

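The region chr17:39843501-39844460, beside the ribosomal RNA pseudogene Rn18s-rs5 of RefSeq and singled out after its values were seen, had 3996, 2259 and 4543 CPM in E12.5 PL, against 1225, 948 and 1202 CPM in 8w BM and 2554, 1774 and 1895 CPM in E12.5 FL. Its log2 fold change over 8w BM was 1.68 ± 0.16 (adjusted p = 5.11e-13, quasi-likelihood test of edgeR).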
